A study of Mus musculus with 30 samples.

Results

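The livers of mice that had received iron ions were compared between 2 collection times, month 12 (360 days after irradiation) and month 9 (270 days), across all genes. The comparison was set by its groups and used 6 of the 30 RNA-seq libraries of the study, 3 from each month. The mice were C57BL16 males, as the labels spell the strain, and the dose of 56Fe in the irradiated arm was 0.2 Gy, at an energy of 600 MeV/n (per nucleon). The other arm was not irradiated, and its 6 libraries of the same months are given beside the irradiated ones. RNA came from 2 frozen slices of the left liver lobe, each 40 micron thick, was depleted of ribosomal RNA and was read as paired ends of 50 bases. The labels call the 3 libraries of a group biological replicates without naming the animals. The p-values of the gene tests rest on the spread between libraries within groups. That spread was estimated over all 30 libraries and not from the 6 compared libraries alone. Time since irradiation, age of the mice and any collection or sequencing batch cannot be told apart between the months.

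Iron ions of high energy are a heavy component of cosmic rays and leave dense tracks of ionisation in tissue. Liver parenchyma is made mostly of hepatocytes, which secrete plasma proteins and so depend on ribosome assembly in the nucleolus, on cytosolic chaperones that fold new proteins, and on sensors of misfolded protein in the endoplasmic reticulum. Chaperone genes of the heat shock family are switched on by heat shock factor 1, which binds repeated GAA units in their promoters. The same cells raise receptors such as Tnfrsf12a, cytoskeletal genes and antioxidant genes when they are injured or regenerate.

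The 6 irradiated libraries held 13359559 to 17237816 counts, and the 30 libraries of the study 7995248 to 20215995. Hepatocyte markers fitted the label of the tissue: Alb, which encodes albumin, stood at 49400, 63700 and 58600 CPM (counts per 1000000 counts of a library, scaled by TMM factors) at month 9 and at 55000, 49000 and 57300 CPM at month 12. The noncoding RNA Gm26917 took 0.46% to 0.585% of the counts at month 9 and 0.759% to 1.04% at month 12 in irradiated livers, and 0.452% to 0.526% and 1.33% to 2.04% in controls. Protein-coding genes took 96.7% to 97.1% and 96.1% to 96.4% of the irradiated counts. For both shares the months did not overlap, and the exact permutation test gave p = 0.1, the smallest that 3 against 3 allows (two-sided; adjusted p = 0.2 over 24 such tests).

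Of 19685 genes tested, 59 (0.3%) passed an adjusted p of 0.05 between months 9 and 12 in irradiated livers. Lower at month 12 were 45 genes (0.229%), and higher were 14 (0.0711%). At an unadjusted p under 0.05 there were 1490 higher and 1694 lower genes, and over all genes the log2 fold change had a median of 0.04. With upper quartile factors in place of TMM that median moved to 0.13 and the calls split into 26 higher and 42 lower. The lower genes were named protein-coding genes in 43 of 45 cases, and they included 2 heat shock genes, 14 ribosome assembly factors and the injury receptor Tnfrsf12a. Their folds ran from 1.49 to 19.4, with a median log2 fold change of -0.99. Of the 14 higher genes, 10 were annotated as noncoding or unclassified transcripts at low levels. Among all genes tested, 14910 (75.7%) were protein-coding, with a median log2 fold change of -0.02, and the 4775 others had a median of 0.38.

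The 45 lower genes shared 1 order of libraries. In 45 of 45, irradiated month 9 replicates 1 and 3 were the 2 highest of the 6 libraries, an order seen in 13.6% of all genes tested. The 45 were selected for high month 9 levels in these same libraries, so month 9 libraries at the top were favoured by the selection. Replicate 1 was highest in 40 of them and replicate 3 in 5. Replicate 2 of month 9 was the lowest of its group in 45 of 45, stood inside the range of the month 12 libraries in 19 and stood above all 3 of them in 25. Over all 19685 genes tested these 3 counts were 6806, 10906 and 4197. Against the 6 control libraries of both months, replicate 1 was above all of them in 44 of the 45 genes, replicate 3 in 44 and replicate 2 in 7. Over all genes tested these counts were 3838 for replicate 1, 2890 for replicate 3 and 1875 for replicate 2. The fall from month 9 to month 12 in these genes came mostly from 2 of the 3 month 9 livers. Its median log2 fold change was -0.99 with all libraries and -0.28 with replicate 2 as the only month 9 library. Without irradiated month 9 replicate 1 no gene was called (1690 at an unadjusted p under 0.05, against 3184 with all libraries), and without replicate 3 there were 10. Without irradiated month 9 replicate 2 the number rose to 1359, which held all 59. The month 12 group mattered as well: 0 genes were called without its replicate 2 (2365 at an unadjusted p under 0.05), 3 without its replicate 3 and 386 without its replicate 1. With the 6 compared libraries alone, 0 genes were called (1084 at an unadjusted p under 0.05), and with months 4, 9 and 12 alone also 0 (2634). The log2 fold changes kept their sign in all 59 genes when any single library was left out. This was largely set by the selection, since the months did not overlap in 39 of the 59, and it is no measure of stability.

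**Figure D1:**
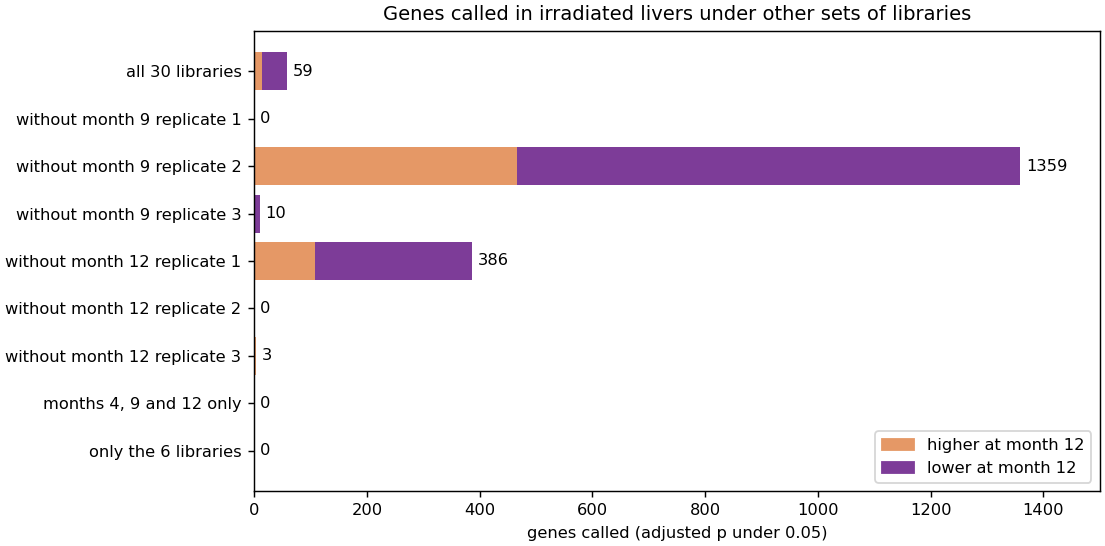
Number of genes called between months 9 and 12 in irradiated livers (adjusted p under 0.05 in edgeR, horizontal axis) for the fit of all 30 libraries and for fits with fewer libraries (vertical axis), with bars split into genes higher and lower at month 12. The count is 59 with all libraries, 0 without month 9 replicate 1 or month 12 replicate 2, and 1359 without month 9 replicate 2.

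**Figure D2:**
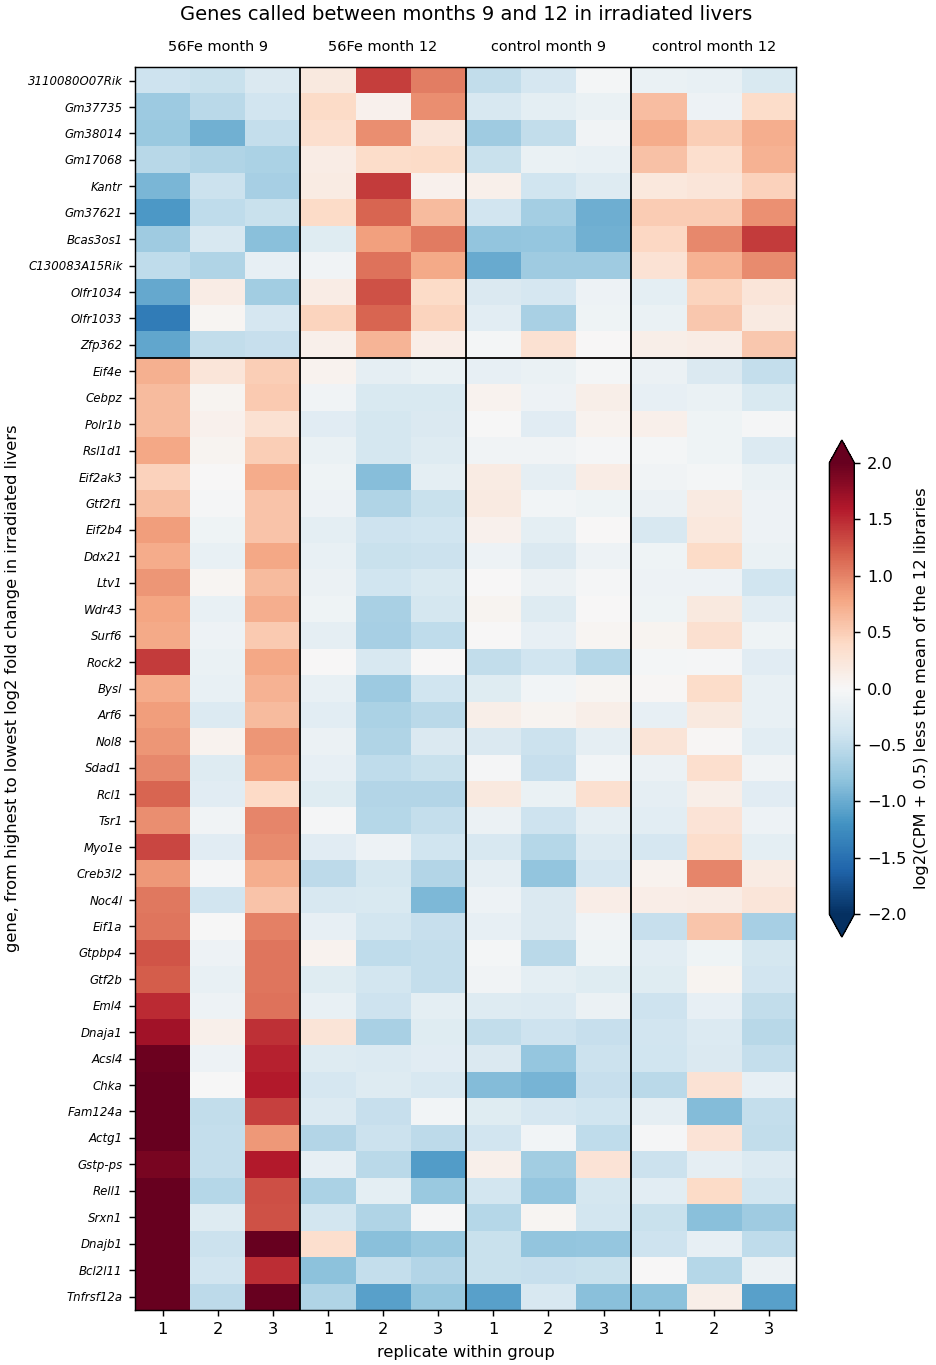
The 47 called genes named in the text, of 59 (rows, from the highest to the lowest log2 fold change) in the 12 libraries of months 9 and 12 (columns), coloured by log2(CPM + 0.5) less the mean of the 12 libraries, with colours saturating at the ends of the scale. Among the 36 lower genes drawn, irradiated month 9 replicates 1 and 3 are the red columns, while month 9 replicate 2 lies near the control libraries.

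An injury receptor gene and a cell death gene had the largest falls among the called genes. Tnfrsf12a (ENSMUSG00000023905, chr17:23675445-23677468 on GRCm38) encodes the receptor of the cytokine TWEAK and is raised in injured and regenerating liver. Its level was 181, 4.81 and 40.5 CPM in month 9 replicates 1, 2 and 3, and 4.52, 3.07 and 4.02 CPM at month 12. Replicates 1 and 3 were high, replicate 2 lay just above the 3 month 12 libraries, and the 6 control libraries ran from 3.08 to 7.72 CPM. Its log2 fold change was -4.28 ± 0.735 (SE), a 19.4-fold lower level with adjusted p = 0.029. Bcl2l11 (ENSMUSG00000027381, chr2:128126038-128162547) encodes Bim, a protein that triggers apoptosis at mitochondria. It stood at 81.1, 8.42 and 31.8 CPM at month 9 and at 6.09, 7.79 and 7.24 CPM at month 12, again with no overlap and with replicate 2 next to month 12. It fell by 2.52 ± 0.442 on the log2 scale (adjusted p = 0.029), while the controls held 7.31 to 11.2 CPM. For both genes the change also differed from that of the control livers (adjusted p = 0.0456 for Tnfrsf12a and 0.045 for Bcl2l11). With month 9 replicate 2 as the only library of its group, the log2 fold changes were -0.34 for Tnfrsf12a and -0.29 for Bcl2l11.

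**Figure D3:**
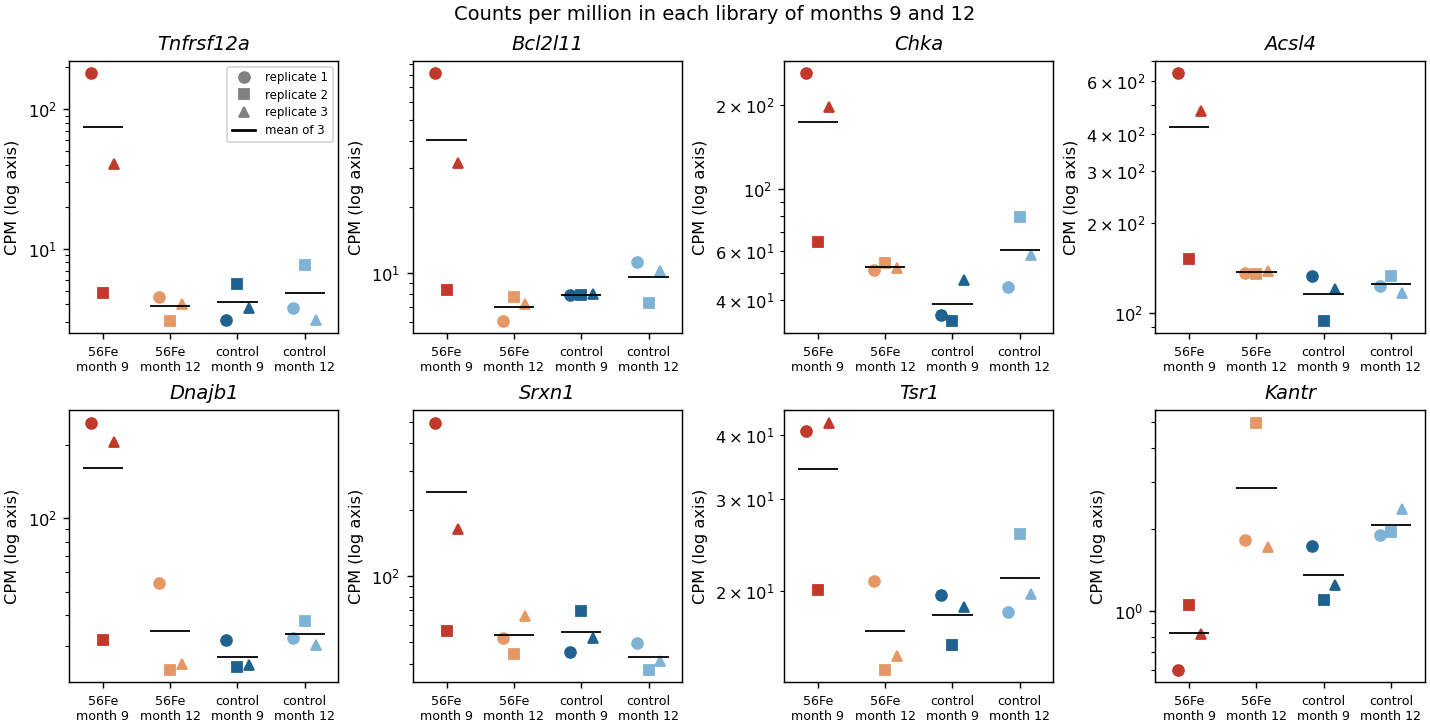
CPM on log axes (vertical) in each library of the 2 months in both arms (horizontal) for 7 genes called lower and for Kantr, called higher; marker shape gives the replicate and the line the mean of 3. In Tnfrsf12a, Bcl2l11, Chka, Acsl4, Dnajb1, Srxn1 and Tsr1, month 9 replicates 1 and 3 stand above the other irradiated libraries, and in Kantr month 12 replicate 2 stands highest at 4.98 CPM.

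Heat shock chaperones, among them the mitochondrial Hspe1 and Hspd1, were the next group. The heat shock list held 20 tested genes, of which 2 were called lower and 0 higher, 18 had a negative log2 fold change and 14 were lower at an unadjusted p under 0.05. Over all genes tested 0.229% were called lower and 8.61% were lower at an unadjusted p under 0.05. The median log2 fold change of the list was -0.62, against 0.04 over all genes, and -0.18 with replicate 2 as the only month 9 library. In controls the median was 0.11 with 1 gene called lower, and 0 of the 20 genes differed between the arms past the threshold (smallest adjusted p = 0.0524). The promoters below are marked for pairs of the GAA unit whose repeats heat shock factor 1 binds. They are those of the called cochaperone gene Dnaja1 and of 3 list members with large changes. Each is the 250 bases before a RefSeq start on GRCm38.p6, and capitals mark GAANNTTC or TTCNNGAA, the facing and the outward arrangement of 2 repeat units.

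Dnaja1: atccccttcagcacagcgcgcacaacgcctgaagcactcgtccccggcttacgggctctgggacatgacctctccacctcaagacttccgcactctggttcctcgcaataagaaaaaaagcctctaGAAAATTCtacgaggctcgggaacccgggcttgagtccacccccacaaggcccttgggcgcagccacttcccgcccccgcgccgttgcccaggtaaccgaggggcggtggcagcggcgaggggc
Hspe1: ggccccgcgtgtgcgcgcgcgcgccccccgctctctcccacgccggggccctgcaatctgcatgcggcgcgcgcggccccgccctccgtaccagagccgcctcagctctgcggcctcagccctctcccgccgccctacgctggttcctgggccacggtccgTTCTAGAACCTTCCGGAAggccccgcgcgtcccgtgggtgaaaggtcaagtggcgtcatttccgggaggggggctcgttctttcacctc
Hspa1b: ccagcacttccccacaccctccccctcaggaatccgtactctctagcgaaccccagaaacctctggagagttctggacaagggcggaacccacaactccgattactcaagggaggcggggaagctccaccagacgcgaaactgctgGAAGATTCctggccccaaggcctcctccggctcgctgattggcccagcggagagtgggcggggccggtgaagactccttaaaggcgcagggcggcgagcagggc
Hspb1: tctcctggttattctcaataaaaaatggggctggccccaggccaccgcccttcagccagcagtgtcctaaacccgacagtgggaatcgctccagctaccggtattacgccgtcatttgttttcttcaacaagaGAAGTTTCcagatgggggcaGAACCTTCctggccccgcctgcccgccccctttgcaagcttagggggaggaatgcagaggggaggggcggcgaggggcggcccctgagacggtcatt

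The windows lie at chr4:40722218-40722467 (plus strand) for Dnaja1, chr1:55087898-55088147 (plus) for Hspe1, chr17:34959239-34959488 (minus) for Hspa1b and chr5:135887669-135887918 (plus) for Hspb1. The Dnaja1 window precedes 1 of 3 RefSeq starts and lies wholly inside the Gencode gene, beginning 68 bases after the annotated gene start. The last 16 bases of the Hspe1 window also lie inside the annotated gene. In Hspe1 the marked run holds 3 overlapping matches, and in Hspb1 there are 2 separate ones. GAANNTTC, which reads the same on both strands, was found before a listed start of 7 of the 16 heat shock genes with a promoter entry (43.8%), of 793 of 12735 tested genes with an entry (6.23%), and of 3 of 38 genes called lower (7.89%). TTCNNGAA was found in 4 of the 16 (25%), in 7.44% of all and in 2 of the 38 (5.26%). A match is a description of letters and not a bound site. The windows of Dnajb1 held neither arrangement.

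Dnajb1 (ENSMUSG00000005483, chr8:83608193-83612653) encodes the Hsp40 cochaperone that hands substrates to Hsp70. It stood at 247, 31.6 and 205 CPM at month 9 and at 54.1, 23.9 and 25.3 CPM at month 12. Month 9 replicate 2 fell between the month 12 libraries, so the groups overlapped, and the controls ran from 24.6 to 38.0 CPM. The log2 fold change was -2.23 ± 0.447 (adjusted p = 0.0362, 4.68-fold lower), but 0.10 with month 9 replicate 2 as its only month 9 library. Dnaja1 (ENSMUSG00000028410, chr4:40722150-40737149), another Hsp40 cochaperone, stood at 708, 237 and 612 CPM against 265, 141 and 187 CPM. It was 2.63-fold lower (log2 -1.40 ± 0.262, adjusted p = 0.0295), with month 9 replicate 2 below month 12 replicate 1. The window shown above, downstream of the annotated gene start, carries 1 marked match.

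Of the list members that did not pass the threshold, 4 are given here, chosen after their values were seen. Hspe1, the small mitochondrial chaperonin partner of Hspd1, stood at 293, 98 and 160 CPM and then at 111, 52.0 and 70.2 CPM (log2 fold change -1.24, adjusted p = 0.0586). In controls Hspe1 was also lower at month 12 (-0.89, adjusted p = 0.0355). Hspa8, the constitutive Hsp70, held 1750, 881 and 1260 CPM and then 933, 589 and 618 CPM (-0.86, adjusted p = 0.109). The inducible Hsp70 gene Hspa1b, whose reads can be shared with its near copy Hspa1a, held 87.6, 17.3 and 90.4 CPM and then 30.6, 8.17 and 7.32 CPM (-2.08, adjusted p = 0.114). Hspb1, a small heat shock protein, held 61.5, 8.57 and 23.8 CPM and then 17.1, 7.98 and 9.25 CPM (-1.44, adjusted p = 0.129). In all 4, the lowest month 9 library was replicate 2 and the highest month 12 library was replicate 1. Summed over the list, month 9 replicates 1, 2 and 3 held 6580, 3610 and 5920 CPM, month 12 held 4200, 2560 and 2630 CPM, and the controls 2830 to 3400 CPM.

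Ribosome assembly factors made up 14 of the 45 lower genes. These proteins copy, cut and fold ribosomal RNA in the nucleolus and load it with ribosomal proteins. The list of 134 tested factors was drawn up after the called genes had been seen, so its counts are a description: 14 were called lower and 0 higher, 130 had a negative log2 fold change, and the libraries of month 12 lay below those of month 9 in 57 (42.5%), against 1184 of all genes tested (6.01%). Its median log2 fold change was -0.47, and -0.17 with replicate 2 as the only month 9 library. In controls the median was 0.01, with 6 called higher and 6 lower. By the direct test, 12 of the 134 had a more negative change in irradiated livers. Over all genes tested 0.229% were called lower in irradiated livers, 10.1% were called higher and 5.78% lower in controls. The direct test called a more negative change in 0.798% of all genes.

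Tsr1 (ENSMUSG00000038335, chr11:74898071-74909342), needed to mature the small ribosomal subunit, stood at 40.7, 20.1 and 42.2 CPM at month 9 and at 20.9, 14.1 and 15 CPM at month 12. It was 2.06-fold lower (log2 -1.04 ± 0.204, adjusted p = 0.0301), with month 9 replicate 2 just below month 12 replicate 1. The controls ran from 15.7 to 25.7 CPM, and the change differed between the arms (adjusted p = 0.0393). Ddx21, a nucleolar RNA helicase, held 99.2, 53.1 and 101 CPM and then 53.3, 43.4 and 43.6 CPM (-0.85, adjusted p = 0.0341). Nol8, a nucleolar protein, held 56.2, 31.9 and 56.3 CPM and then 27.9, 19.9 and 24.8 CPM (-0.99, adjusted p = 0.0354), with no overlap. Both differed between the arms at adjusted p = 0.039. Surf6, a nucleolar matrix protein, fell from 28.0, 15.2 and 23.6 CPM to 14.3, 10.1 and 11.4 CPM (-0.90, adjusted p = 0.0304; difference between the arms 0.0456). In these genes the 2 high livers of month 9 stood above every other irradiated library, and replicate 2 stood close to the month 12 range.

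Also lower were Rcl1, which cuts the precursor of the small subunit RNA (308, 117 and 181 CPM to 116, 91.4 and 91.7 CPM, adjusted p = 0.0304), and the GTPase Gtpbp4 of the large subunit (125, 48.6 and 110 CPM to 54.9, 36.6 and 37.5 CPM, adjusted p = 0.043). Polr1b, the second largest subunit of RNA polymerase I, which transcribes ribosomal RNA, went from 41.8, 28.3 and 32.9 CPM to 22.7, 20.8 and 21.6 CPM. Its log2 fold change was -0.66 (adjusted p = 0.0459), and its groups did not overlap. The remaining called factors were Wdr43, Bysl, Noc4l, Sdad1, Ltv1, Cebpz and Rsl1d1, with log2 fold changes from -1.07 (Noc4l) to -0.65 (Cebpz). Heatr1, another factor of ribosomal RNA transcription, missed the threshold at adjusted p = 0.0501 with -0.83, yet its difference between the arms passed at 0.0389.

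Genes of the ribosome itself had negative medians in both arms. Of 79 cytosolic ribosomal protein genes 0 were called, although 78 had a negative log2 fold change and 38 were lower at an unadjusted p under 0.05 (8.61% of all genes tested were). Their median was -0.44 in irradiated livers, and -0.17 without month 9 replicate 1. With replicate 2 as the only month 9 library it was -0.02. In controls the median was -0.56 and 30 were called lower, where 5.78% of all genes were. Rps7, of the small subunit, stood at 127, 72.7 and 77.3 CPM at month 9 and at 72.3, 56.1 and 59.0 CPM at month 12 (-0.56, adjusted p = 0.119). In controls the log2 fold change of Rps7 was -1.05 (adjusted p = 1.99e-04). Among the irradiated libraries month 9 replicate 1 stood highest for the ribosomal proteins, with a median deviation of 0.71 from each gene's mean over the 12 libraries, against -0.18 in replicate 2 and 0.05 in replicate 3. Control month 9 replicates 1, 2 and 3 stood at 0.39, 0.12 and 0.36. For the assembly factors irradiated replicates 1 and 3 stood at 0.53 and 0.30.

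**Figure D4:**
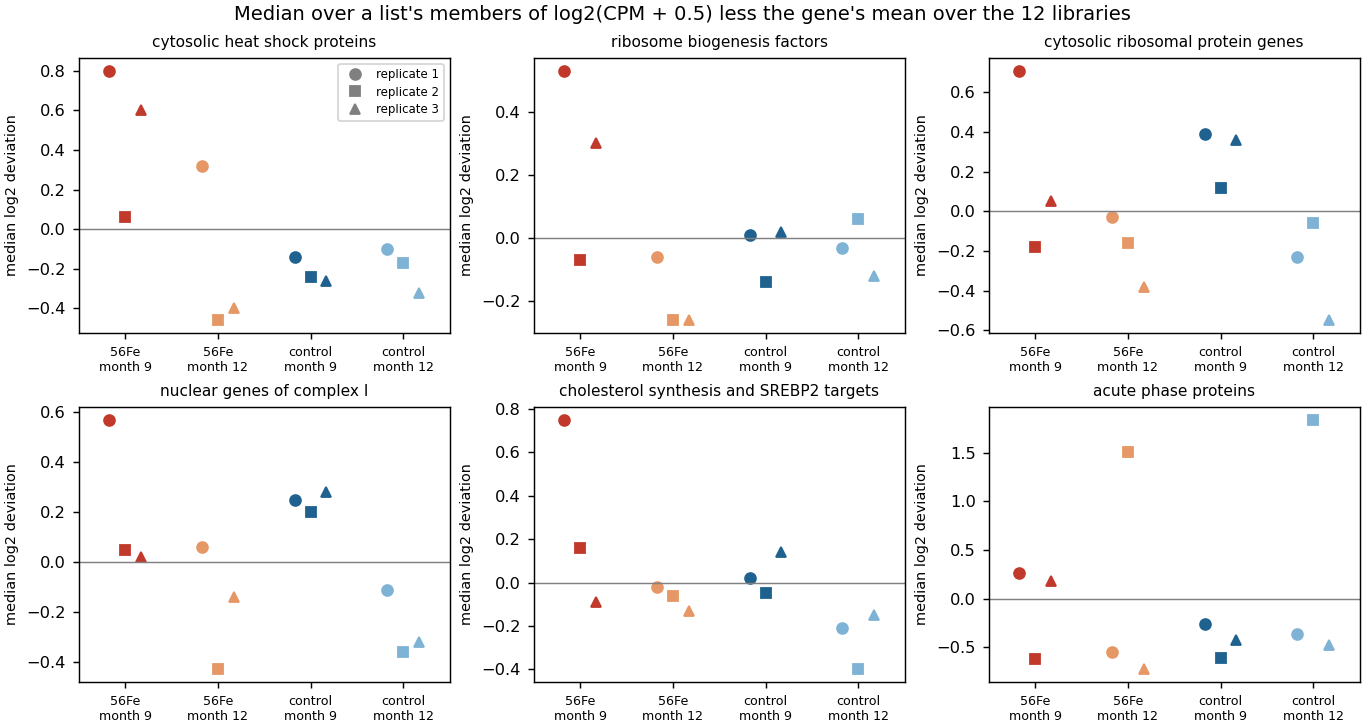
Median over the members of 6 gene lists of log2(CPM + 0.5) less the gene's mean over the 12 libraries (vertical) for each library of months 9 and 12 in both arms (horizontal), with marker shape giving the replicate. Heat shock genes stand at 0.80 and 0.60 in irradiated month 9 replicates 1 and 3, ribosomal protein genes at 0.71 in irradiated replicate 1 and at 0.39 and 0.36 in control month 9 replicates 1 and 3, and acute phase genes at 1.51 and 1.84 in month 12 replicate 2 of the irradiated and control arm.

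Called genes also included 5 that encode initiation factors of transcription or translation. They are described singly, since no list of such factors was drawn up and the others were not tallied. Gtf2b, which encodes the general factor TFIIB, held 61.4, 23.8 and 55.9 CPM and then 22.3, 20.4 and 18.9 CPM (log2 -1.20, adjusted p = 0.0295). Gtf2f1, of TFIIF, held 29.4, 18.9 and 28.8 CPM and then 17.9, 12.5 and 14 CPM (-0.79, adjusted p = 0.0354). Among initiation factors of translation, Eif1a, which helps the ribosome find the start codon, went from 215, 102 and 206 CPM to 90.6, 79.4 and 74.2 CPM (-1.10, adjusted p = 0.0482). The cap-binding factor Eif4e went from 68.6, 49.5 and 59.0 CPM to 43.8, 36.6 and 38.0 CPM, the smallest called fold at 1.49 (adjusted p = 0.0438). Eif2b4, a subunit of the exchange factor that recharges eIF2, changed by -0.84 (adjusted p = 0.0301). The month 12 libraries lay below those of month 9 in all 5, as in 25 of the 45 genes called lower and in 6.01% of all genes tested. The 5 were taken from called genes, so this order was favoured by the selection.

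Sensors and regulators of the endoplasmic reticulum were represented by a pair of called genes. Eif2ak3, which encodes the kinase PERK, stood at 42.2, 30.7 and 51.6 CPM and then at 28.8, 16.7 and 26.7 CPM, with no overlap (-0.79, adjusted p = 0.0418). It was the only called member of the 20 tested genes of the list of ER stress sensors and ER-associated degradation, whose median was -0.15. Ern1, the kinase IRE1, held 401, 146 and 311 CPM and then 171, 123 and 109 CPM (-1.09, adjusted p = 0.0538). Xbp1, spliced by IRE1, held 980, 215 and 489 CPM and then 215, 232 and 167 CPM (-1.46, adjusted p = 0.0614). ER chaperones themselves had a median of -0.01 over 22 genes, with 0 called. Creb3l2 (ENSMUSG00000038648, chr6:37327255-37442146), a transcription factor anchored in the ER membrane, held 105, 56.2 and 94.7 CPM at month 9 and 39.5, 44.6 and 38.2 CPM at month 12 (-1.07 ± 0.224, adjusted p = 0.0354). It rose in controls, from 50.4, 33.1 and 45.1 CPM to 60.2, 113 and 64.5 CPM (0.88, adjusted p = 0.00827). The difference between the arms was -1.95 ± 0.315 (adjusted p = 0.00585), and Creb3l2 was the only gene called in opposite directions in the 2 arms.

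Lipid and redox enzymes with large changes followed. Chka (ENSMUSG00000024843, chr19:3851773-3894369), choline kinase, starts phosphatidylcholine synthesis. It stood at 259, 64.8 and 197 CPM at month 9 and at 51.3, 54.5 and 52.1 CPM at month 12, with no overlap (-1.72 ± 0.316, adjusted p = 0.0295; difference between the arms -2.37, adjusted p = 0.0248). Chka was the 1 called gene of 30 in the phospholipid and one-carbon list, whose median was -0.16. Acsl4 (ENSMUSG00000031278, chrX:142317993-142390535) links arachidonic acid to coenzyme A. It held 637, 152 and 475 CPM and then 136, 135 and 139 CPM, again without overlap, and the controls ran from 94.5 to 133 CPM. It changed by -1.63 ± 0.29 on the log2 scale (adjusted p = 0.029; difference between the arms 0.0456).

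Srxn1 (ENSMUSG00000032802, chr2:152105516-152111376), sulfiredoxin, reactivates oxidised peroxiredoxins. It held 496, 56.1 and 164 CPM and then 52.2, 44.3 and 66.0 CPM, with month 9 replicate 2 inside the month 12 range. Its log2 fold change was -2.14 ± 0.443 (adjusted p = 0.043) and -0.08 with replicate 2 as the only month 9 library. It was the 1 called gene of 26 in the NRF2 antioxidant list, which had a median of -0.14, and Txnrd1 of that list changed by -0.48 (adjusted p = 0.127). The glutathione transferase pseudogene Gstp-ps was 4.31-fold lower (12.2, 1.95 and 9.79 CPM to 2.56, 1.85 and 1.08 CPM, adjusted p = 0.036). Its reads can be shared with its near copy Gstp1, which held 1530, 250 and 1050 CPM and then 432, 401 and 191 CPM (-1.47, adjusted p = 0.13). Among all genes tested the lowest fitted value was that of Ugt2b37, a glucuronosyltransferase of a family with close copies, at 110, 1.05 and 38.1 CPM and then 2.36, 1.40 and 1.72 CPM. It changed by -4.75 ± 1.03 and missed the threshold (adjusted p = 0.0501), with month 9 replicate 2 below all 3 month 12 libraries.

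Other called genes encode proteins of the cytoskeleton or of membrane traffic. They come from no list and are described singly. Actg1, cytoplasmic gamma actin, stood at 150, 21.1 and 54.1 CPM and then at 19.5, 21.7 and 20.4 CPM (-1.86, adjusted p = 0.0467). Myo1e, a membrane-linked myosin, held 249, 83.9 and 191 CPM and then 84.5, 92.1 and 74.7 CPM (-1.06, adjusted p = 0.0459). Rock2, a kinase of contractility, held 234, 80.3 and 151 CPM and then 89.1, 70.8 and 88.9 CPM (-0.90, adjusted p = 0.0482). In all 3, month 9 replicate 2 lay inside the month 12 range. Arf6, a GTPase of membrane traffic at the cell surface, held 70.7, 32.6 and 61.5 CPM and then 33.8, 25.1 and 26.9 CPM (-0.94, adjusted p = 0.029). Eml4 (ENSMUSG00000032624, chr17:83350931-83480361), a microtubule protein, held 127, 41.8 and 95.8 CPM and then 40.6, 33.5 and 39.4 CPM. It changed by -1.22 ± 0.208, with the smallest adjusted p of the lower genes (0.0194). Keratin genes, which hepatocytes and bile duct cells express, were also high in month 9 replicate 1: Krt8 held 996, 191 and 337 CPM and then 226, 241 and 208 CPM (-1.17, adjusted p = 0.0947).

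The 14 genes higher at month 12 had lower levels and no overlap between the months in any of the 14. Such an order was seen in 1499 of all genes tested (7.61%). They comprised 4 protein-coding genes, 7 transcripts of the class TEC, which still awaits experimental proof, 1 antisense RNA, 1 processed transcript and 1 processed pseudogene, and 4 of them averaged under 1 CPM. Month 12 replicate 2 was highest in 10 and replicate 3 in 4. Kantr (ENSMUSG00000087403, chrX:152294828-152327495), a transcript next to Kdm5c, stood at 0.604, 1.05 and 0.821 CPM at month 9 and at 1.83, 4.98 and 1.72 CPM at month 12. Its log2 fold change was 1.77 ± 0.339 (adjusted p = 0.0295), and the controls ran from 1.09 to 2.37 CPM. Zfp362, a zinc finger gene, rose from 1.12, 1.88 and 1.92 CPM to 3.08, 4.85 and 3.16 CPM (1.16, adjusted p = 0.0304). The adjacent olfactory receptor genes Olfr1033 and Olfr1034 rose by 1.20 and 1.23 (both adjusted p = 0.0482). They are members of a large family of close copies, and how the counting handled reads that match several copies was not tested.

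Gm37621 (ENSMUSG00000103672, chr9:101116701-101122231), which lies within Ppp2r3a on the opposite strand, had the smallest adjusted p of all genes. It held 0.691, 1.35 and 1.44 CPM and then 2.95, 5.43 and 3.59 CPM (1.76 ± 0.273, adjusted p = 0.0102). Controls showed a similar step, from 0.846 to 1.52 CPM at month 9 to 3.24 to 4.49 CPM at month 12 (1.63, adjusted p = 1.66e-04). Bcas3os1, antisense to Bcas3, held 0.863, 1.28 and 0.753 CPM and then 1.38, 3.45 and 4.09 CPM (1.61, adjusted p = 0.0354; controls 2.37, adjusted p = 3.16e-05). Nearly all of the noncoding ones sit inside a gene (Gm38014 in Mindy3, 3110080O07Rik in Maml3, Gm37735 in Erbb4, Gm17068 in Gnaq, C130083A15Rik in Chd2). The transcripts in brackets lie on the same strand as their host, so strand would not tell their reads from those of the host. The strand used in counting is not stated. Reads of genes that overlap on opposite strands, as with Gm37621 and Bcas3os1, therefore cannot be told apart either. The same holds for Dnaja1, which overlaps Smu1 on the opposite strand, and for Tsr1, which overlaps Srr. The 14 had a median log2 fold change of 1.58 in irradiated livers and 1.40 in controls, and the share of counts in TEC transcripts was 0.129% to 0.154% at month 9 and 0.158% to 0.25% at month 12. The part of this shift in composition in the higher genes was not tested.

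Control livers over the same interval had 3131 called genes (15.9%), 1994 higher (10.1%) and 1137 lower (5.78%). The 2 comparisons share no library. Called in both were 9 genes, which are 15.3% of those of the irradiated and 0.287% of those of the control comparison. Of these, 8 were higher in both arms, all among the noncoding or unclassified transcripts, and the ninth was Creb3l2. The 45 lower genes had a median log2 fold change of 0.05 in controls and none was called lower there. Whether the change differed between the arms was tested directly, and 186 genes passed (0.945%), of which 29 had the more positive change in irradiated livers (0.147%) and 157 the more negative (0.798%). Only 13 of the 59 genes (22%) were among them, so for the rest a difference from controls was not shown. Of the 186, 143 (76.9%) were called in the controls. Leaving out irradiated month 9 replicate 1 took the 186 to 13, and leaving out replicate 2 took it to 1151. Leaving out control month 12 replicate 2 left 14. Most other libraries mattered as much. Without irradiated month 9 replicate 3 there were 17, and without irradiated month 12 replicates 1 and 3 there were 14 and 13. Control month 9 replicates 1, 2 and 3 gave 17, 16 and 25 when left out, and control month 12 replicate 3 gave 33. The number rose to 232 without irradiated month 12 replicate 2 and to 421 without control month 12 replicate 1.

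Most genes with the firmest differences between the arms moved in the controls. Pom121, of the nuclear pore, stood at 10.4, 9.85 and 11.6 CPM and then at 9.17, 10.6 and 8.61 CPM in irradiated livers. In controls it went from 7.18, 4.08 and 7.61 CPM to 16.1, 19.3 and 14.9 CPM, so the difference was -1.58 ± 0.243 (adjusted p = 0.00585). Dot1l, the histone H3 lysine methyltransferase, changed by -0.54 in irradiated livers (adjusted p = 0.153) and rose by 1.04 in controls (difference -1.58, adjusted p = 0.00585). In the other direction, Wdr91, a protein of endosome maturation, went from 16, 21 and 18 CPM to 22.4, 24.6 and 22.1 CPM in irradiated livers, 3 libraries above 3 (0.33, adjusted p = 0.176). In controls Wdr91 fell from 29.2, 27.3 and 27.6 CPM to 15.5, 18.7 and 20.6 CPM, a difference of 0.94 ± 0.167 (adjusted p = 0.00841). Esrra, a nuclear receptor of mitochondrial genes, held 16.8, 22.2 and 15.8 CPM and then 28.0, 22.3 and 24.9 CPM in irradiated livers, against a fall of 0.57 on the log2 scale in controls (difference 1.03, adjusted p = 0.0299).

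**Figure D5:**
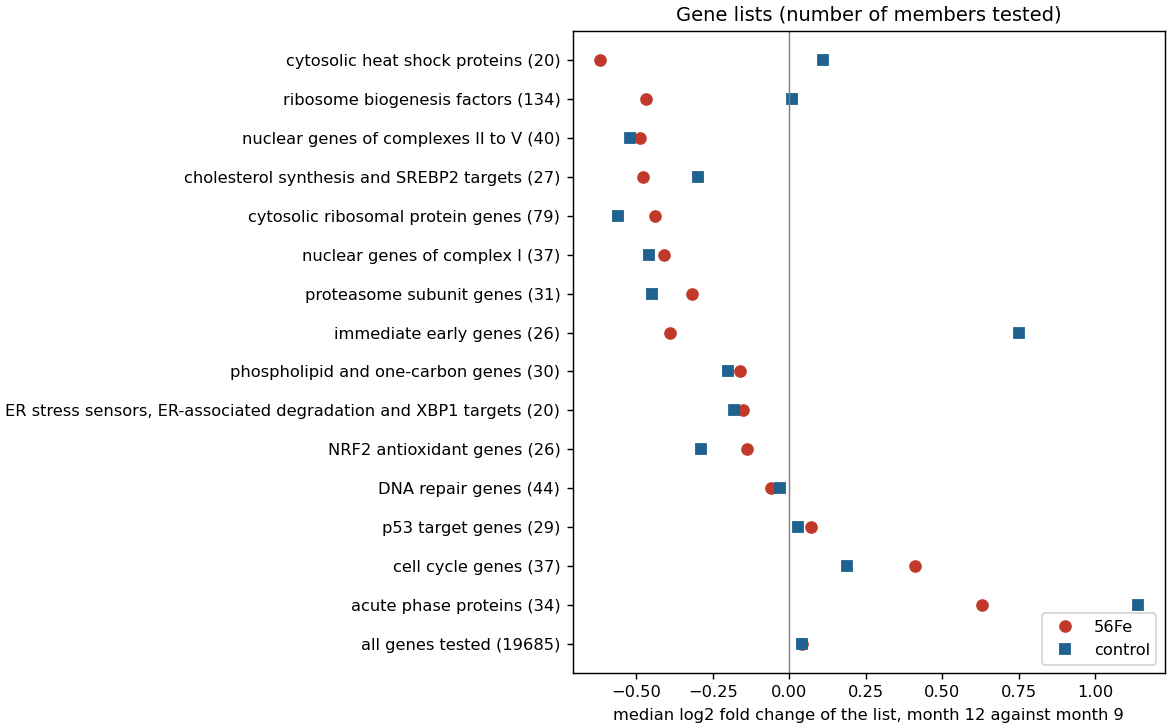
Median log2 fold change between months 9 and 12 (horizontal) of 15 gene lists and of all genes tested (vertical, number of members tested in brackets) in irradiated and control livers. Heat shock genes and ribosome assembly factors lie at -0.62 and -0.47 in irradiated livers and at 0.11 and 0.01 in controls, whereas ribosomal protein, respiratory chain and proteasome genes are negative in both arms.

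Energy and protein turnover genes had no called member in irradiated livers, where 0.3% of all genes tested were called. The 37 nuclear genes of respiratory complex I were all negative, with a median of -0.41 and 26 lower at an unadjusted p under 0.05 (8.61% of all genes), and the median in controls was -0.46 with 16 called lower (5.78% of all genes). The 40 genes of complexes II to V had medians of -0.49 and -0.52, with 17 called lower and 1 higher in controls. The 31 proteasome genes had -0.32 and -0.45, with 17 called lower in controls. Without irradiated month 9 replicate 1 the medians of complex I, of complexes II to V and of the proteasome were -0.25, -0.30 and -0.26. Without irradiated month 12 replicate 1 these medians were -0.58, -0.68 and -0.48. Uqcrh, the hinge subunit of complex III, stood at 171, 103 and 116 CPM and then at 99.0, 76.9 and 79.7 CPM without overlap (-0.61, adjusted p = 0.0903). The difference between the arms in Uqcrh was 0.06 (adjusted p = 0.922). No member of these 4 lists, counting the ribosomal proteins, differed between the arms past the threshold.

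Cholesterol synthesis genes had a median of -0.48 over 27 genes, and of -0.30 in controls. In irradiated livers 0 were called and 15 were lower at an unadjusted p under 0.05 (8.61% of all genes tested were). The median was -0.19 without month 9 replicate 1, the library in which the list stood at a median deviation of 0.75, against 0.16 and -0.09 in replicates 2 and 3. Socs2, a target of growth hormone signalling through STAT5, held 207, 12.6 and 77.1 CPM and then 16.6, 5.17 and 7.10 CPM (-3.36, adjusted p = 0.078). Cyp7a1, which controls the first step from cholesterol to bile acids, held 233, 181 and 284 CPM and then 89.5, 98.6 and 103 CPM, with no overlap (-1.26 ± 0.59, adjusted p = 0.296). Neither p53 targets (29 genes, median 0.07) nor DNA repair genes (44, median -0.06) had a called member. Only 0.3% of all genes tested were called, so lists of this size would mostly hold none.

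Acute phase genes were set by 1 liver. Saa1, a serum amyloid secreted in inflammation, held 54.5, 15 and 68.9 CPM at month 9 and 36.1, 4300 and 24.4 CPM at month 12, and Saa2 held 26.1, 5920 and 19.5 CPM at month 12. Month 12 replicate 2 also held 619 CPM of Lcn2 against 5.90 and 6.38 in its group. The list of 34 genes had a median of 0.63 with 0 called (Saa1 adjusted p = 0.26). In the control arm it was again replicate 2 of month 12 that stood high, with 1940 CPM of Saa1. The neutrophil markers, 14 tested with a median of 0.20, summed to 7.59 to 36.5 CPM at month 9 and to 11.1, 649 and 12.8 CPM at month 12, and most of the 649 was Lcn2, which hepatocytes also make. The same library was the lowest of the 6 in 30 of the 45 lower genes and the highest in 10 of the 14 higher genes, and the part of its acute phase level in those calls was not tested beyond the fit without it, which called 0 genes. S100a8 and S100a9, which encode the abundant cytosolic proteins of neutrophils, held 5.36 and 9.45 CPM in that library and 3.45 and 6.48 CPM in month 9 replicate 1, and Camp, a granule gene, was at 0 in month 12 replicates 1 and 3.

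Macrophage markers were uneven at month 9, and there too replicate 2 was the lowest. The 22 tested genes, none of them called, had a median log2 fold change of -0.50, and of -0.13 without irradiated month 9 replicate 3. They summed to 1060, 744 and 1710 CPM at month 9 and to 975, 1040 and 646 CPM at month 12. In controls the median was 0.52, with sums of 1040, 845 and 756 CPM at month 9 and 589, 2610 and 612 CPM at month 12. Only replicate 2 of control month 12 stood high. Marco, a scavenger receptor of Kupffer cells, held 19.5, 4.96 and 80.5 CPM and then 7.86, 7.28 and 2.01 CPM (-2.61, adjusted p = 0.294). Clec4f, a defining Kupffer cell lectin, held 144, 91.0 and 175 CPM and then 117, 109 and 72.3 CPM. No defining macrophage marker was at 0 in any of the 6 libraries. The 45 lower genes share the low place of month 9 replicate 2 with these markers, and the part of macrophage content in their fall was not tested. In bulk tissue fewer cells of a type and less RNA per cell cannot be told apart.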

How the data were processed

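Read counts per gene from 30 mouse liver libraries were used as the authors deposited them, as raw counts that were not normalized. Per the series' design text and the submitters' processing notes, the reads were aligned to GRCm38 with STAR 2.5.3a, whose GeneCounts option gave the counts per gene of Gencode release M14. The strand setting is not given in the sources used here. Gene names and positions are those of Gencode M21, which lacked 193 of 51826 identifiers, together no more than 0.0222% of any library. Counts were fitted in R 4.3.3 by the robust quasi-likelihood method of edgeR 4.0.16, after filterByExpr (minimum count 10, minimum total 15) and TMM scaling, with 10 group coefficients, 30 libraries and 20 residual degrees of freedom. Adjusted p-values are Benjamini-Hochberg values over 19685 genes, and genes under 0.05 are called. The standard error is the log2 fold change divided by the root of F. CPM are scaled by TMM factors, and intervals of time were contrasted within each arm and between the arms.

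The comparison, the 57 gene lists and the tests were chosen with earlier results of these data known. Named genes are, among called genes of at least 1 CPM without overlap and without a provisional symbol, the 10 largest changes and 5 smallest adjusted p in each direction, up to 4 called members of each list, 2 examples of lists with none, and 6 genes in each direction for the difference between the arms. Called genes outside this rule, among them Dnajb1, Dnaja1, Srxn1, Tsr1, Gm37621, Actg1 and the ribosome assembly factors, and uncalled genes such as Ugt2b37, Gstp1, Socs2 and Krt8, were chosen after their values were seen, as were the promoters printed, taken from the RefSeq tables of GRCm38.p6. Some genes that this rule names are not reported here. Tested on simulated counts for this comparison (19375 genes), the fit recovered 33% of 2-fold and 72% of 4-fold changes, with 1 false call among 106. Each simulated gene was drawn independently, with the same dispersion in every group. Livers that depart together over many genes, as month 9 replicates 1 and 3 did, were therefore not simulated. The share of false calls among the 59 genes cannot be read from it. Total counts set the precision of each value, and the replicates of a group differed by more than sampling noise. Other settings were RLE and upper quartile factors, no filter, a filter of 1 CPM in 3 libraries, DESeq2 1.42.0, limma 3.58.1 voom, fewer libraries, a replicate block, and leaving out each library. Keeping only replicate 2 of irradiated month 9 was added after seeing the data.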

Additional observations from a re-analysis of the deposited data

Results flagged for a closer look

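The change from month 9 to month 12 differed between irradiated and control livers in 186 genes, by a test of the difference itself in the fit of all libraries. By the same test the 6 named genes with a more negative change after irradiation were Creb3l2 (-1.95, adjusted p = 0.00585), Pom121 (-1.58, 0.00585), Dot1l (-1.58, 0.00585), Sf1, a splicing factor (-1.33, 0.00747), Proser1 (-1.28, 0.00884) and Myadm (-1.57, 0.0164). In these genes the log2 fold change was -1.07, -0.17, -0.54, -0.52, 0.03 and -0.68 in irradiated and 0.88, 1.41, 1.04, 0.82, 1.31 and 0.89 in control livers. The 6 with a more positive change were Wdr91 (0.94, adjusted p = 0.00841), H1f0, a linker histone (0.86, 0.0171), Cebpe (1.59, 0.0248), Esrra (1.03, 0.0299), Tgds (1.03, 0.0333) and Prkra (0.89, 0.0389). Here the values were 0.33, 0.10, 0.69, 0.46, 0.27 and 0.12 in irradiated and -0.62, -0.76, -0.90, -0.57, -0.77 and -0.77 in control livers. Of the 12 genes, Creb3l2 was the only one called in irradiated livers, and all 12 were called in controls.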

How the results depend on the processing

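The 59 genes called in irradiated livers became 100 with RLE factors, 143 without the filter, 115 with 1 CPM in 3 libraries, 509 with DESeq2, 19 with limma voom, 244 with a replicate block, and 0 with the compared libraries alone, with months 4, 9 and 12 alone, or with irradiated month 9 replicate 2 as the lone library of its group (686 at an unadjusted p under 0.05). Leaving out single libraries gave 0 to 1359. The 3131 control genes became 2057 without the filter and 1728 with the compared libraries alone, and ran from 1818 to 3491 without single libraries. The 186 genes that differ between the arms became 338 without the filter and 721 with DESeq2, and 0 with the compared libraries alone (2274 unadjusted), with months 4, 9 and 12 alone (2888) or with the lone library (1706); leaving out single libraries gave 13 to 1151. Every one of the 59 log2 fold changes kept its sign in each planned setting that gave a value. The genes were selected for a difference between these libraries, so kept signs were favoured in advance. With the lone library 55 of 59 kept their sign. That fit was added after seeing the data, and its lone library is assumed to vary like the other groups. Limma voom kept 18 of the 59. Replicate numbers do not pair the livers: deviations of same-numbered libraries correlated at -0.01, -0.26 and -0.19 in irradiated and -0.12, -0.06 and 0.08 in control livers. The cause of these moves was not tested.

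With irradiated month 9 replicate 2 as the lone library, the log2 fold change of the genes called lower turned positive in Dnajb1 (0.0954), Rell1 (0.0516), Rock2 (0.0162) and Fam124a (0.226). Among uncalled genes it turned positive in Ugt2b37 (0.763), Krt18 (0.478), Gstp1 (0.426), Hspb1 (0.39), Krt8 (0.21), Marco (0.191), Dot1l (0.0936), Sf1 (0.0298) and Malat1 (0.00401), and negative in Tgds (-0.0739) and Prkra (-0.0986). Over fits that each left out 1 library, Saa1 ran from -0.623 to 5.54, Lcn2 from -0.603 to 5.07 (both lowest without irradiated month 12 replicate 2) and Proser1 from -0.0433 to 0.0709, and Proser1 was -0.0131 without the filter.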

Other observations

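Several other gene groups of the liver had no called member between months 9 and 12 after irradiation. Only 0.3% of all genes tested were called, so small lists would mostly hold none. Cell cycle genes had a median log2 fold change of 0.41 over 37 genes, and of 0.19 in controls. It was 0.13 without irradiated month 12 replicate 3 and 0.25 without month 9 replicate 1. Immediate early genes had a median of -0.39 over 26 genes, and of 0.75 in controls. Their control sums were 278, 267 and 321 CPM at month 9 and 254, 1080 and 263 CPM at month 12. Only replicate 2 of control month 12 stood high. Growth hormone and sex-biased genes had a median of -0.48 over 34 genes (-0.21 in controls, with 5 called lower there). That median was -0.81 without irradiated month 12 replicate 1 and -0.12 with replicate 2 as the lone month 9 library. Ppargc1a, a coactivator of mitochondrial genes, held 8.72, 12.0 and 6.23 CPM at month 9 and 12.3, 33.9 and 18.1 CPM at month 12, with no overlap (log2 fold change 1.26 ± 0.34, adjusted p = 0.0914 in edgeR). The medians of the acute phase, Kupffer cell and immediate early lists changed sign over the other settings, from -0.61 to 1.25, from -0.78 to 0.23 and from -0.58 to 0.38.

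Other promoter letters were also counted in the 250 bases before listed starts. TGACNNNGC, the core of the antioxidant response element on either strand, was found for 6 of 38 genes called lower (15.8%), for 5 of 22 NRF2 antioxidant genes (22.7%) and for 13.7% of all tested genes with an entry. The E-box CACGTG was found for 6 of 38 (15.8%), for 10 of 113 ribosome assembly factors (8.85%) and for 9.12% of all.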
